A study of Mus musculus with 6 samples.

Results

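The genes examined were 10 genes of the integrated stress response and the unfolded protein response: Atf4, Atf3, Ddit3, Trib3, Asns, Chac1, Sesn2, Psat1, Phgdh and Xbp1. Every probe of the deposited brain table that carried one of these symbols was taken, which gave 17 probes out of 25697, and 10 gene symbols out of 18138. The brains came from male mice at postnatal day 6, labelled FVB and kept on FVB/N per the study's methods, and were hybridized as whole brain RNA to Illumina MouseRef-8 bead arrays, with 3 arrays for each of the groups, hSRY-OFF and hSRY-ON. As the study's methods define the groups, both carried Signalox-hSRY, a single-copy transgene at the H11 locus on chromosome 11, in which the ubiquitous CAG promoter drives the red fluorescent protein DsRed2 until Cre recombinase removes it. By that definition the transgene was unrecombined in hSRY-OFF mice and the human SRY sequence silent. In hSRY-ON mice it had been recombined in the early embryo by Cre protein from the oocytes of Ddx4-Cre mothers, so that FLAG-tagged human SRY and EGFP were driven by CAG, and pups that had inherited no Ddx4-Cre transgene were chosen. The line comes from 1 integrated transgene, expression was not limited to any cell type, and the hSRY-ON pups of this line were described as growing slowly with little milk in the stomach. Elsewhere the study speaks of control littermates that lacked this transgene, so that its presence in the hSRY-OFF brains rests on the definition of that name. Whether the pups used for the arrays shared litters was not given in the sources used here. The human transgene itself was not analysed here, so the labels were not checked against it.

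The integrated stress response is a common pathway by which cells meet amino acid shortage, misfolded protein in the endoplasmic reticulum, heme shortage or viral RNA. Kinases that sense these conditions phosphorylate the translation initiation factor eIF2, which slows protein synthesis in general while the mRNA of the transcription factor ATF4 is translated more. ATF4 then raises genes for amino acid synthesis, uptake and tRNA charging, together with the regulators CHOP (Ddit3), ATF3, TRIB3, SESN2 and CHAC1. The unfolded protein response has further branches, through IRE1, which splices the mRNA of XBP1, and through ATF6, and these raise the chaperones and the degradation machinery of the endoplasmic reticulum. In the developing brain, serine made by PHGDH and PSAT1 in glia is supplied to neurons.

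ATF4 acts through a short element that pairs a half-site for its CEBP partners with one for ATF. The core TGATGNAA was searched on both strands of the RefSeq promoters of the members (GRCm38.p6), each of 300 bases, from 250 before to 50 after the annotated start of transcription. All 10 members had a window, and the core was found in those of 4 of them, Atf3, Chac1, Trib3 and Asns. Of all 32851 windows in the same table, 3.97% held it. The 4 windows are shown because they are the members that share the letters, with the match in capitals and each sequence written 5′ to 3′ on the strand of its gene. The windows lie at chr1:191183284-191183583 on the minus strand for Atf3, chr2:119350992-119351291 on the plus strand for Chac1, chr2:152344011-152344310 on the minus strand for Trib3 and chr6:7693160-7693459 on the minus strand for Asns.
Atf3: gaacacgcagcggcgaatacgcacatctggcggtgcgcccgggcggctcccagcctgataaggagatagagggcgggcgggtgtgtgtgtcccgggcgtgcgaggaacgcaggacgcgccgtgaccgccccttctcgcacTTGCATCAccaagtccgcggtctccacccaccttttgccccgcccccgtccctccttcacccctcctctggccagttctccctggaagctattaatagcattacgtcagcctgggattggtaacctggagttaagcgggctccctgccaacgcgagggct
Chac1: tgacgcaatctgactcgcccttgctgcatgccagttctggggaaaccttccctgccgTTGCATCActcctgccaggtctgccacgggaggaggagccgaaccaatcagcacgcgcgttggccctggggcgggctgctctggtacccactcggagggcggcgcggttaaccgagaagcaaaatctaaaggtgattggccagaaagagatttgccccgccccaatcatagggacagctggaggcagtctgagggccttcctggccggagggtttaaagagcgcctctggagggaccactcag
Trib3: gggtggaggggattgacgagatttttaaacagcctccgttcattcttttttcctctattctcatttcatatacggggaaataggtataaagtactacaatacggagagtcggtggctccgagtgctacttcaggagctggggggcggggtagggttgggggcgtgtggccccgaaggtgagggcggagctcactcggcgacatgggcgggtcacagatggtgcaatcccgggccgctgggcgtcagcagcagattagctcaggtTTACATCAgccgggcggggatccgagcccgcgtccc
Asns: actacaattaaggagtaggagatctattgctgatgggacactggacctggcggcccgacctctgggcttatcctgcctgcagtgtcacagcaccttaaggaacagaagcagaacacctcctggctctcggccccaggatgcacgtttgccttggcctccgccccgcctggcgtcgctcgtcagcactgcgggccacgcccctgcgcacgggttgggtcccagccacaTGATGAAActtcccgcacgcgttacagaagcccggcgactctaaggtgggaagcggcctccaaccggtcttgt
In Asns the match read TGATGAAA in the direction of the gene, with its last base 16 before the start. In Atf3 and Chac1 it read TTGCATCA, the core on the opposite strand, with its last base 103 and 186 before the start. In Trib3 it read TTACATCA, also the opposite strand, and began at base 15, with the start counted as base 1. Elements of the XBP1 and ATF6 branches were searched in the same way: TGACGTGG was in 0.676% of all windows and the longer endoplasmic reticulum stress element (ERSE) in 0.119%, and no member window held either. These matches describe letters in 1 window per annotated start and say nothing of binding.

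The members were compared between hSRY-ON and hSRY-OFF brains on the log2 scale after background correction and quantile normalization, with limma's moderated test across all probes detected on at least 3 of the 6 arrays. Of the 17 member probes, 14 probes of 9 genes were tested. No member probe passed an adjusted p under 0.05 (Benjamini-Hochberg over 14215 tested probes), against 308 calls over all tested probes, or 2.17% (0.844% higher and 1.32% lower in hSRY-ON). At an unadjusted p under 0.05 there were 2 member probes, Chac1 higher and Xbp1 lower, against 20.9% of all tested probes (10.1% higher and 10.9% lower). The arrays of the groups did not overlap at 3 member probes, 2 of them higher (Chac1 and 1 of 3 Asns probes) and 1 lower (Xbp1) in hSRY-ON. Over all tested probes 27.7% did not overlap, so that share among the members was near the background. The mean in hSRY-ON was higher at 12 of the 14 probes and lower at 2, against 51.1% higher and 48.9% lower over all tested probes. The 14 probes include several of the same gene. Some of the higher probes were dim and met the detection filter partly through hSRY-ON. These were Atf4 ILMN_1223734 (detected on 1 hSRY-OFF and 3 hSRY-ON arrays), Trib3 ILMN_1244279 (1 and 2) and Asns ILMN_2636755 (2 and 3). With the brightest probe of each gene, 7 of 9 genes were higher and 2 lower, against 50.1% and 49.9% of all genes tested in that way. The 2 at an unadjusted p under 0.05 stand against 21.5% of all genes, 9.86% higher and 11.6% lower. The median log2 difference of the 14 probes was 0.16, against 0.0048 over all tested probes, and with 1 probe per gene it was 0.10, against 0.00041 over all genes. The differences ranged from -0.29 for Xbp1 to 0.41 for Chac1.

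**Figure D1:**
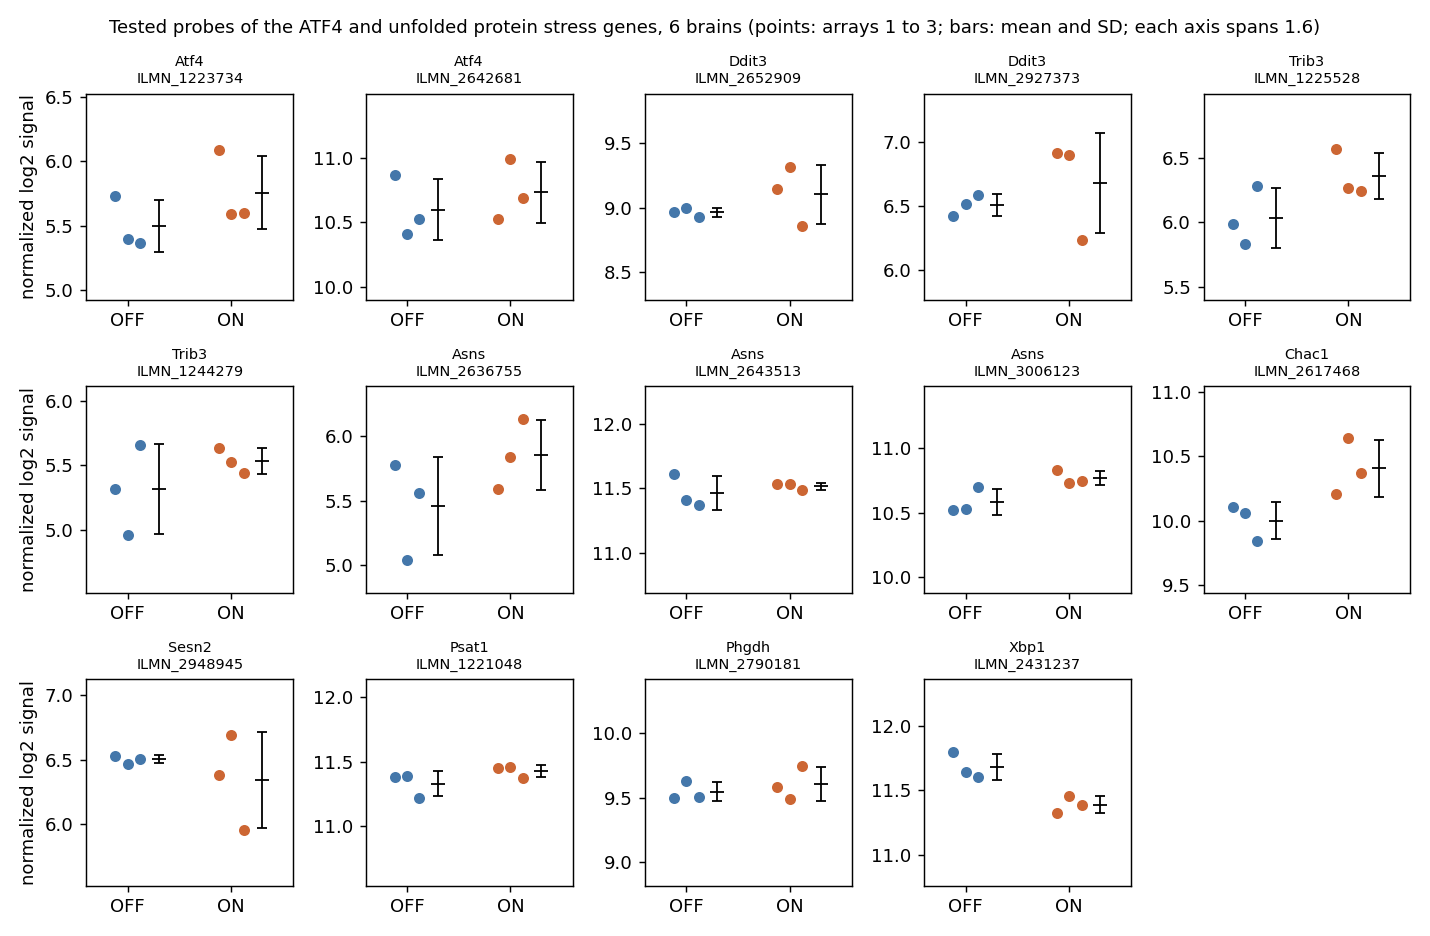
Normalized log2 signal (vertical axis) of each tested member probe on the 3 hSRY-OFF arrays (left, blue) and the 3 hSRY-ON arrays (right, orange), with the mean and SD of each group beside the points and the same axis span in every panel. The groups are free of overlap at Chac1, Xbp1 and Asns ILMN_3006123, and overlap at the other 11 probes.

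Atf4, the transcription factor at the centre of the response, was read by 2 probes. At the bright probe ILMN_2642681 the normalized log2 signal was 10.86, 10.41 and 10.52 on the 3 hSRY-OFF arrays and 10.52, 10.99 and 10.69 on the 3 hSRY-ON arrays. The groups overlapped, since the highest hSRY-OFF array lay above 2 of the hSRY-ON arrays. The difference was 0.14 (SE 0.16, 95% confidence interval -0.25 to 0.52, limma adjusted p = 0.679). It rested on single arrays, running from 0.008 without the second hSRY-ON array to 0.27 without the first hSRY-OFF array. The second probe, ILMN_1223734, was dim, being detected on 1 hSRY-OFF array and on all 3 hSRY-ON arrays, and differed by 0.26 (interval -0.13 to 0.65, adjusted p = 0.422), or by 0.071 without background correction and 0.093 without the first hSRY-ON array. Because ATF4 is regulated at translation, its mRNA is not a reading of its protein, which was not measured. Atf3, a stress-induced partner and repressor, had a single probe, ILMN_2619408. That probe was not detected on any array, with deposited signals from 159 to 193 and detection p-values from 0.0977 to 0.635, and so has no fold change.

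Ddit3 encodes CHOP, the factor most often linked to cell death after lasting stress. Its brighter probe, ILMN_2652909, read 8.96, 9.00 and 8.93 in hSRY-OFF and 9.14, 9.31 and 8.86 in hSRY-ON brains. The hSRY-OFF arrays lay close together, while the hSRY-ON arrays fell on both sides of them. The difference was 0.14 (SE 0.12, interval -0.15 to 0.43, adjusted p = 0.556). The second Ddit3 probe, ILMN_2927373, repeated this arrangement, with 6.42, 6.52 and 6.59 against 6.91, 6.90 and 6.23 and a difference of 0.17 (adjusted p = 0.643) that was 0.075 without background correction. At both probes the third hSRY-ON array was the lowest of all 6 and the other 2 hSRY-ON arrays were the highest. With 1 array left out the difference ran from 0.036 to 0.26 at the first probe and from 0.06 to 0.39 at the second, the highest values arising without the third hSRY-ON array (adjusted p = 0.167 and 0.0743) and the lowest without the second and the first hSRY-ON array.

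Trib3 encodes a pseudokinase that is induced by ATF4 and CHOP and restrains them. At probe ILMN_1225528 the signal was 5.98, 5.83 and 6.28 in hSRY-OFF and 6.56, 6.26 and 6.24 in hSRY-ON, so that 1 hSRY-OFF array reached into the hSRY-ON range. The difference was 0.33 (SE 0.14, interval -0.01 to 0.67, unadjusted p = 0.0578, adjusted p = 0.254), and 0.11 without background correction. A second probe, ILMN_1244279, was detected on only 3 arrays and differed by 0.22 (adjusted p = 0.511), which became 0.061 without background correction and 0.045 without the second hSRY-OFF array. The third, ILMN_1252762, was not detected on any array. Sesn2 encodes sestrin 2, which lowers mTORC1 activity when leucine is short. Its detected probe, ILMN_2948945, read 6.53, 6.47 and 6.51 in hSRY-OFF and 6.38, 6.69 and 5.95 in hSRY-ON, a difference of -0.16 (interval -0.58 to 0.26, adjusted p = 0.649). The hSRY-ON arrays again lay on both sides of the hSRY-OFF arrays, and the difference was 0.03 without the third hSRY-ON array, -0.34 without the second and -0.051 without background correction. Its other probe, ILMN_1219984, was not detected on any array.

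Chac1 encodes an enzyme that degrades glutathione and is among the most responsive targets of ATF4. Its only probe, ILMN_2617468, read 10.11, 10.06 and 9.84 on the hSRY-OFF arrays and 10.21, 10.64 and 10.37 on the hSRY-ON arrays. Every hSRY-ON array was above every hSRY-OFF array. The difference of 0.41 (SE 0.13, interval 0.09 to 0.72) corresponds to 1.32-fold, with an interval of 1.07-fold to 1.64-fold. Its unadjusted p was 0.0182 and its limma adjusted p 0.151, so it did not pass over all tested probes. In size it lay above 89.8% of all tested probes. The call depended on how the variance and the background were handled. With a prior that follows intensity and is robust to outlying probes the adjusted p was 0.0129, without background correction it was 0.0249, and over all alternatives it ran from 0.0129 to 0.311. With that prior 10.2% of all tested probes were called, and without background correction 9.26%.

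Asns encodes asparagine synthetase, whose promoter is the standard reporter of amino acid shortage. Probe ILMN_3006123 read 10.52, 10.53 and 10.70 in hSRY-OFF and 10.83, 10.73 and 10.74 in hSRY-ON. The groups did not overlap, with a difference of 0.19 (SE 0.085, interval -0.01 to 0.39, adjusted p = 0.264). Probe ILMN_2643513 read 11.61, 11.41 and 11.37 against 11.53, 11.53 and 11.48, a difference of 0.05 (interval -0.16 to 0.27, adjusted p = 0.786) that ran from 0.0049 without the third hSRY-OFF array to 0.13 without the first. The third probe, ILMN_2636755, was dim, with a difference of 0.40 and an interval from -0.10 to 0.90 (adjusted p = 0.332). It was 0.11 without background correction and 0.19 without the second hSRY-OFF array. All 3 probes were higher in the mean of hSRY-ON, and none passed the test. The upper limit at the probe with the narrowest interval of the 3, ILMN_3006123, was 1.31-fold.

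Phgdh and Psat1 encode consecutive enzymes of serine synthesis. For Phgdh, probe ILMN_2790181 read 9.50, 9.63 and 9.51 in hSRY-OFF and 9.58, 9.49 and 9.75 in hSRY-ON. The ranges crossed, and the difference of 0.06 had an interval from -0.17 to 0.29 (adjusted p = 0.765), or 0.892-fold to 1.22-fold. It was -0.011 without the third hSRY-ON array, 0.12 without the second and 0.026 with array weights. For Psat1, probe ILMN_1221048 read 11.38, 11.39 and 11.22 against 11.45, 11.46 and 11.37. Its hSRY-ON arrays tended to the upper end but overlapped with hSRY-OFF, with a difference of 0.10 (interval -0.10 to 0.30, adjusted p = 0.536) that was 0.045 without the third hSRY-OFF array. The Psat1 interval was the narrowest among the members and reached 1.23-fold at its upper end.

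Xbp1 encodes the transcription factor of the IRE1 branch, which raises genes of secretory protein folding. Its only probe, ILMN_2431237, read 11.80, 11.64 and 11.60 in hSRY-OFF and 11.32, 11.45 and 11.39 in hSRY-ON brains. All 3 hSRY-ON arrays lay below all 3 hSRY-OFF arrays. The difference was -0.29 (SE 0.088, interval -0.50 to -0.08), which is 0.817-fold with an interval of 0.708-fold to 0.943-fold. The unadjusted p was 0.0125 and the limma adjusted p 0.126, the lowest of the members and still above the threshold. With the intensity-following robust prior it was 0.0097 and without background correction 0.0249, and over all alternatives it ran from 0.0097 to 0.284. The difference was negative under every alternative, from -0.33 to -0.23. The spliced and unspliced forms of Xbp1 were not told apart, since the sequence of the probe was not used here.

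**Figure D2:**
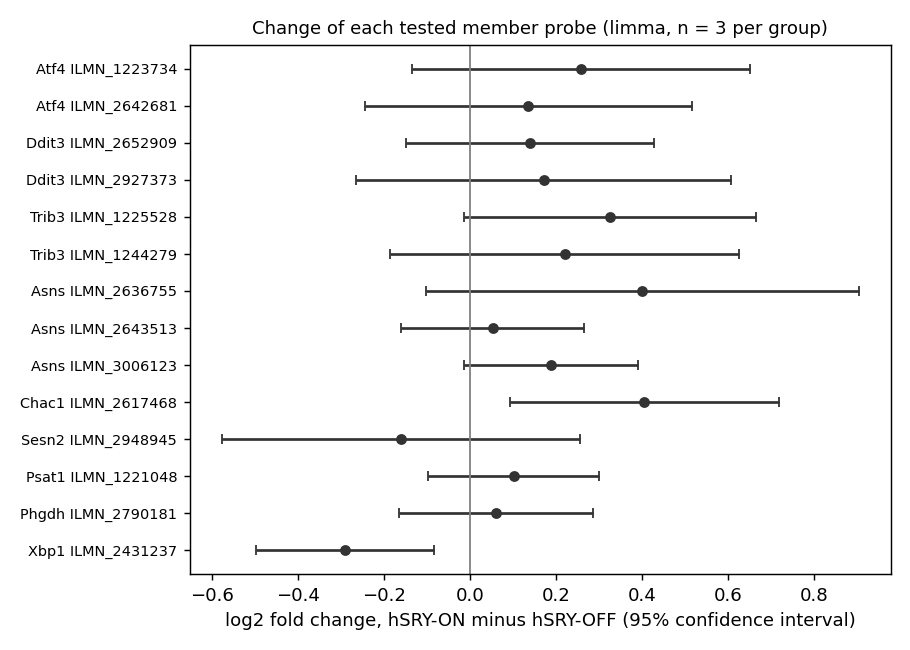
Difference of each tested member probe in log2 units, hSRY-ON minus hSRY-OFF (horizontal axis), with the 95% confidence interval from limma for 3 arrays per group. The intervals of Chac1 and Xbp1 leave out 0 before adjustment for 14215 probes, on opposite sides, and those of the other 12 probes include it.

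The half-width of the 95% interval ran from 0.20 to 0.50 on the log2 scale over the 14 probes, which is a factor of 1.15 to 1.42. With 3 arrays per group, differences well within these widths could not be told from 0. The hSRY-ON arrays differed among themselves. Among them, the second was the highest at 7 of the 14 probes and the third was the lowest at 7, and the third also stood apart from the other 5 arrays on the second principal component of all tested probes (-22.2, against 0.05 to 8.92). With 1 array left out, 1 to 4 member probes had an unadjusted p under 0.05 in place of 2, the 4 without the third hSRY-ON array and the 1 without the second, and no member was called. All arrays had similar depth of detection, with 13816 to 14377 probes at a detection p under 0.05.

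Upstream of ATF4, the list of eIF2 kinases, phosphatase subunits and eIF2B held 17 tested probes. In hSRY-ON 5 of these were higher and 12 lower, none called, with a median difference of -0.04. The lowest p-values were at Eif2s2, the beta subunit of eIF2 (0.28, adjusted p = 0.104 at its brighter probe), and at Ppp1r15a, listed as Myd116, which directs the phosphatase that reverses eIF2 phosphorylation. Myd116 read 8.50, 8.80 and 8.71 in hSRY-OFF and 9.33, 9.05 and 8.86 in hSRY-ON, with no overlap and a difference of 0.41 (adjusted p = 0.162). Ppp1r15a is itself a known target of ATF4 and CHOP. Its constitutive counterpart Ppp1r15b differed by -0.27 (adjusted p = 0.198) and the eIF2B subunit Eif2b4 by -0.16 (adjusted p = 0.278). Among the kinases, Eif2ak1 (HRI) differed by -0.08 (adjusted p = 0.683) and Eif2ak2 (PKR) by -0.18 (adjusted p = 0.431), the probe of Eif2ak4 (GCN2, the sensor of uncharged tRNA) was not detected on any array and Eif2ak3 (PERK) was not analysed here.

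Among partners of ATF4 and regulators raised in the same stress, 18 probes were tested, and 1 of them, of the lipoprotein receptor gene Vldlr, entered the test only through its detection in hSRY-ON. Of the other 17 probes 13 were higher and 4 lower, with a median difference of 0.31, and 11 had an unadjusted p under 0.05, 8 higher and 3 lower, against 20.9% of all tested probes. Of the 8 higher probes, 4 were of Vldlr. Both calls of the list were of Vldlr, 1 of them at the probe set apart here. Vldlr ILMN_2458671 read 5.28, 5.67 and 5.55 in hSRY-OFF and 6.37, 6.45 and 6.20 in hSRY-ON, a rise of 0.84 (SE 0.12, adjusted p = 0.0321) that was 0.25 without background correction. The other called probe, ILMN_1230923, was detected on 3 hSRY-ON arrays and on no hSRY-OFF array, so that it had to differ to be tested and its call supports nothing. With the background correction used here, hSRY-ON was at least 1.47-fold higher at this probe (limma adjusted p = 0.033). This bound took for each hSRY-OFF array the higher of the probe's own signal and the lowest signal of a detected probe. The other 3 Vldlr probes were bright, did not overlap and differed by 0.34 to 0.38, with adjusted p from 0.0679 to 0.0861. The count of calls in this list was 7 without background correction or with the robust trended prior, settings that called 9.26% and 10.2% of all tested probes, and 0 when any array but the third hSRY-ON array was left out. With 1 probe per gene this list had 11 genes, 8 higher and 3 lower, no call and a median of 0.23, and 6 genes had an unadjusted p under 0.05, 4 higher and 2 lower, against 21.5% of all genes. Cebpb, a dimer partner of ATF4, differed by 0.40 (adjusted p = 0.11) and its relative Cebpg by -0.38 (adjusted p = 0.162). Gadd45a, a growth arrest gene, was lower at both of its probes (-0.33 and -0.25, adjusted p = 0.094 and 0.171). The probes of Fgf21 and Gdf15, hormones released under this stress, were not detected on any array.

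The effector lists of amino acid metabolism were split in direction. Of 27 tested probes for aminoacyl-tRNA synthetases, 15 were higher and 12 lower, with no call and a median of 0.09. Sars, which charges serine tRNA, showed the lowest p. Its probe ILMN_2712900 differed by 0.43 (adjusted p = 0.0764) and its other probe, ILMN_2871412, by 0.10 (adjusted p = 0.633). Nars differed by 0.21 (adjusted p = 0.161), Wars by -0.15 at ILMN_1254157 (adjusted p = 0.336) and Iars by -0.18 at ILMN_2810047 (adjusted p = 0.344). The other Wars probes differed by 0.07, -0.06 and -0.02, and the brighter Iars probe by -0.02.

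Of 9 probes for amino acid transporters, 5 were higher and 4 lower, with no call. Slc7a3, a transporter of cationic amino acids, read 10.78, 10.59 and 10.70 in hSRY-OFF and 11.36, 11.29 and 10.87 in hSRY-ON (difference 0.48, adjusted p = 0.116). Slc7a11, the cystine transporter and a well-known ATF4 target, lay in the opposite direction, with 9.26, 9.29 and 9.22 against 8.77, 8.92 and 9.09 (difference -0.33, adjusted p = 0.125). The groups did not overlap at either of these probes, and neither passed the test. At a second, dim Slc7a3 probe, ILMN_1212906, they overlapped, with a difference of 0.23 (adjusted p = 0.537). Slc38a2, a transporter of neutral amino acids that is induced by amino acid shortage, differed by 0.01 at its bright probe ILMN_1244123 (adjusted p = 0.964) and by 0.31 at ILMN_2955671 (interval -0.10 to 0.71, adjusted p = 0.361). Slc7a1, another transporter of cationic amino acids, differed by -0.26 (adjusted p = 0.457).

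Among other genes of serine, glycine and one-carbon synthesis, 10 probes were tested, 4 higher and 6 lower. The 1 call was Tyms, thymidylate synthase, whose probe ILMN_2484707 fell by 0.63 (SE 0.096, adjusted p = 0.033). The call was lost when any array but the third hSRY-ON array was left out, with adjusted p up to 0.117. Tyms is also a gene of DNA synthesis in dividing cells, and its other tested probe differed by -0.20 (adjusted p = 0.514). Shmt2, the mitochondrial serine hydroxymethyltransferase, differed by 0.31 at ILMN_2702703 (adjusted p = 0.209) and by 0.06 at ILMN_1224942 (adjusted p = 0.74). Gldc, of the glycine cleavage system, differed by -0.15 (adjusted p = 0.272) and by -0.08 at its other probe. Srr, serine racemase, differed by 0.18 (adjusted p = 0.476). The probe of Psph, the final enzyme of serine synthesis, was not detected on any array. In the list of other amino acid synthesis, 3 of 8 probes were higher and 5 lower, with no call. Cbs, of the route from homocysteine to cysteine, came closest, with a difference of 0.46 (adjusted p = 0.0595) at one probe and 0.30 (adjusted p = 0.239) at the other. The alanine aminotransferases Gpt1 and Gpt2 differed by -0.22 (adjusted p = 0.373) and 0.11 (adjusted p = 0.519), and the mitochondrial aspartate aminotransferase Got2 by -0.13 (adjusted p = 0.351).

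**Figure D3:**
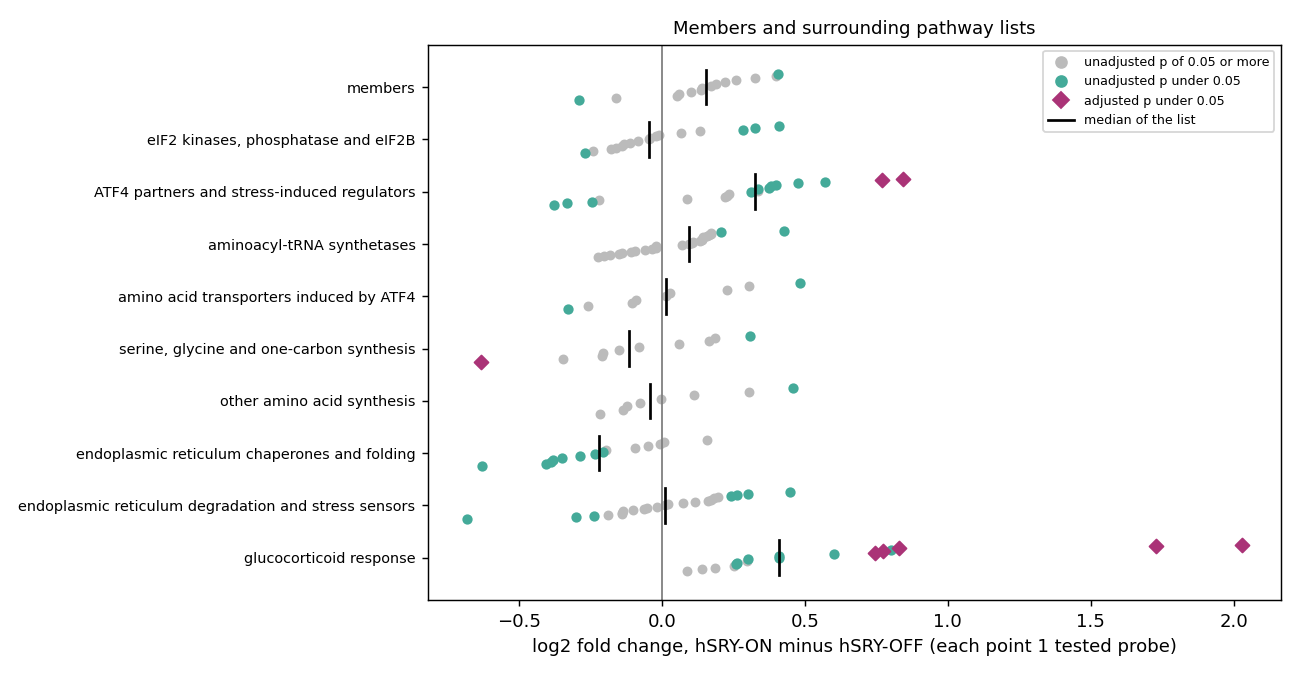
Difference in log2 units, hSRY-ON minus hSRY-OFF (horizontal axis), of every tested probe of the members and of 9 surrounding gene lists, with the median of each list as a black line and the test result by colour. The members' median is 0.16 over probes (0.10 with 1 probe per gene), endoplasmic reticulum chaperones have a median of -0.22 with no call, and the glucocorticoid response genes a median of 0.41 with 5 calls. All lists were chosen with earlier results of these data known.

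The chaperones and folding enzymes of the endoplasmic reticulum, which the XBP1 and ATF6 branches raise, were lower at 12 of 14 tested probes and higher at 2, with a median difference of -0.22. None was called, while 8 had an unadjusted p under 0.05, all 8 lower, against 10.9% of all tested probes in that direction. Without background correction, and with the robust trended prior, 5 chaperone probes were called, where 9.26% and 10.2% of all tested probes were. The mean log2 signal over the 12 genes of this list, 1 probe each, was 9.76 to 9.83 on the hSRY-OFF arrays and 9.52 to 9.62 on the hSRY-ON arrays, with no overlap. Creld2, a folding factor sensitive to this stress, was read by 2 probes that differed by -0.39 and -0.40 (adjusted p = 0.0648 and 0.0861). Calr, the calcium-binding lectin chaperone calreticulin, read 11.31, 11.46 and 11.60 against 10.78, 11.20 and 10.50, a difference of -0.63 (adjusted p = 0.115). Hsp90b1 (GRP94) differed by -0.29 (adjusted p = 0.12), the disulfide isomerase Pdia4 by -0.35 (adjusted p = 0.137) and Hyou1 by -0.23 (adjusted p = 0.171). These genes lay in the same direction as Xbp1. Dnajb9, a co-chaperone and a target of XBP1, differed by 0.16 (adjusted p = 0.458), the most positive value of the list. The probes of Hspa5 (BiP), Canx and Manf (listed as Armet) were not detected on any array. Hspa5 and Canx are used by nearly all cells, so an undetected probe is no reading of its gene here.

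**Figure D4:**
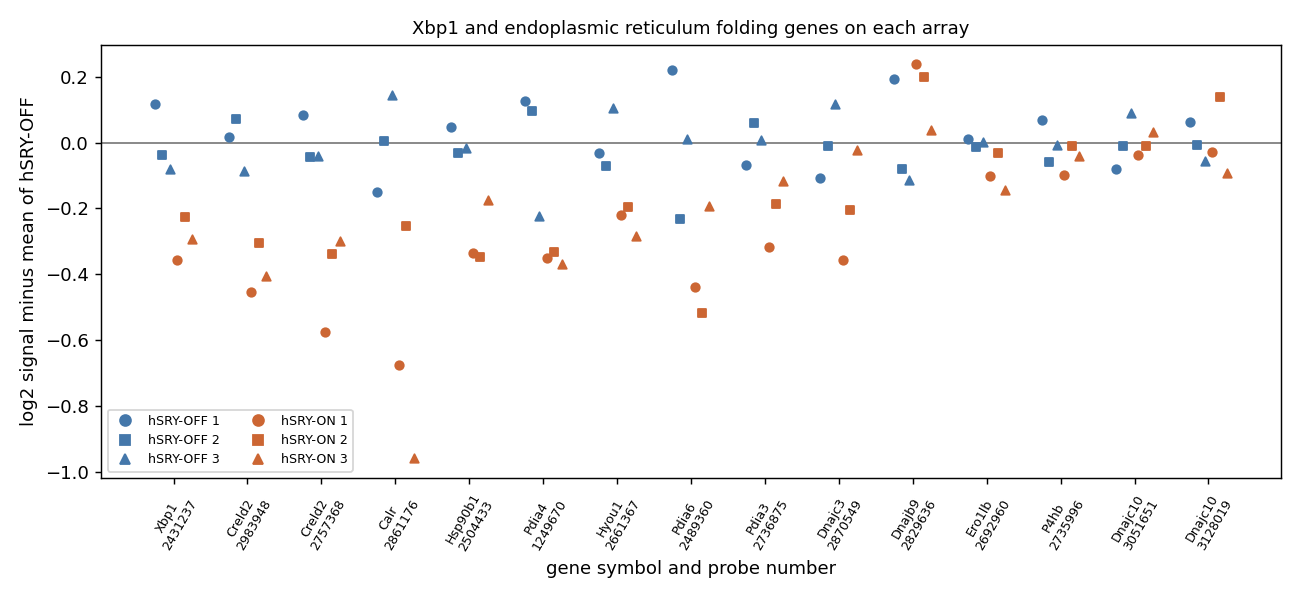
Log2 signal on each of the 6 arrays minus the mean of the 3 hSRY-OFF arrays (vertical axis) for Xbp1 and the 14 tested probes of the chaperone list, ordered by unadjusted p after Xbp1, with replicates 1, 2 and 3 as circles, squares and triangles. All hSRY-ON arrays lie below all hSRY-OFF arrays at Xbp1 and at 8 of the 14 chaperone probes, none of which passed the adjusted threshold, while 14.2% of all tested probes did not overlap and were lower.

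Genes of endoplasmic reticulum degradation and the stress sensors showed no common direction, with 12 of 23 probes higher, 11 lower, no call and a median of 0.01. Sel1l, of the ubiquitin ligase complex for misfolded proteins, differed by 0.45 at ILMN_3060512 (adjusted p = 0.0717) but by 0.18 and 0.02 at its other tested probes. Mbtps1, the protease that activates ATF6, differed by 0.30 at ILMN_1239494 (adjusted p = 0.111) and by 0.17 and 0.12 at its other tested probes. Derl2, of the channel for misfolded proteins, differed by -0.68 (adjusted p = 0.125) and the translocon subunit Sec61b by -0.30 at ILMN_2609807 (adjusted p = 0.216), with -0.14 at its other probe. The single probe of Ern1, which encodes IRE1, was not detected on any array.

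Another stress pathway, the response to glucocorticoids, was read from 17 probes, of which 17 were higher and 5 called, with a median of 0.41, against 51.1% higher and 2.17% called over all tested probes. The called genes were Sult1a1, Mt1, Mt2, Fam107a and Fkbp5. Like the others, this list was chosen with earlier results of these data known. Its counts are therefore a description and no support for the pathway. Sult1a1 had a difference of 1.73 (adjusted p = 0.0054) and Fam107a one of 2.03 (adjusted p = 0.0263). With 1 array left out, Mt1, Mt2, Fam107a and Fkbp5 were called only without the third hSRY-ON array, and Sult1a1 in 3 of the 6 fits.

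The tissue label was checked on markers. Of 6 neuron markers, 5 were matched by symbol or synonym and 4 of these had a tested probe. These 4 differed little, with 0 of 6 probes at an unadjusted p under 0.05. Their mean level was 11.65 to 11.79 in hSRY-OFF and 11.64 to 11.76 in hSRY-ON. Markers of some other cells differed with the group. All 7 proliferation genes were lower in hSRY-ON, 6 of them called (2.39% of all genes were called with 1 probe each), with a mean level of 9.28 to 9.47 in hSRY-OFF and 8.23 to 8.76 in hSRY-ON. All 6 oligodendrocyte markers were lower, 1 called (10.97 to 11.48 against 10.39 to 10.57). Of 7 astrocyte markers 3 were higher and 4 lower, with a mean level of 10.87 to 10.98 in hSRY-OFF and 10.68 to 10.71 in hSRY-ON. The 2 called, Aqp4 and Gfap, were lower. Gjb6 and Aldoc were higher by 0.46 and 0.28, with no overlap of the groups and no call (limma adjusted p = 0.102 and 0.105). Of the 5 choroid plexus markers tested, Kl was detected on 3 hSRY-ON arrays and on no hSRY-OFF array, so that it had to be higher to be tested. The other 4 were higher, with no call and a mean level of 9.58 to 9.79 in hSRY-OFF and 9.88 to 10.02 in hSRY-ON. The part of these cell types in the differences of Chac1, Xbp1, Tyms and the chaperones was not tested. In RNA of whole brain, fewer cells of a type and less RNA per cell cannot be told apart. Of the radial glia markers 1 of 5 was higher, of the microglia markers 4 of 6, of the endothelial markers 3 of 6 and of the erythroid markers 1 of 3, with no call in any of these lists. At an unadjusted p under 0.05 were 5 endothelial markers, 2 higher and 3 lower, against 21.5% of all genes. So were 2 radial glia markers, both lower, 1 microglia marker, higher, and 0 erythroid markers. Mean levels were 9.03 to 9.05 in hSRY-OFF and 8.67 to 8.97 in hSRY-ON for radial glia. For endothelium they were 9.09 to 9.13 and 9.07 to 9.08. The marker calls too were lost when any array but the third hSRY-ON array was left out.

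**Figure D5:**
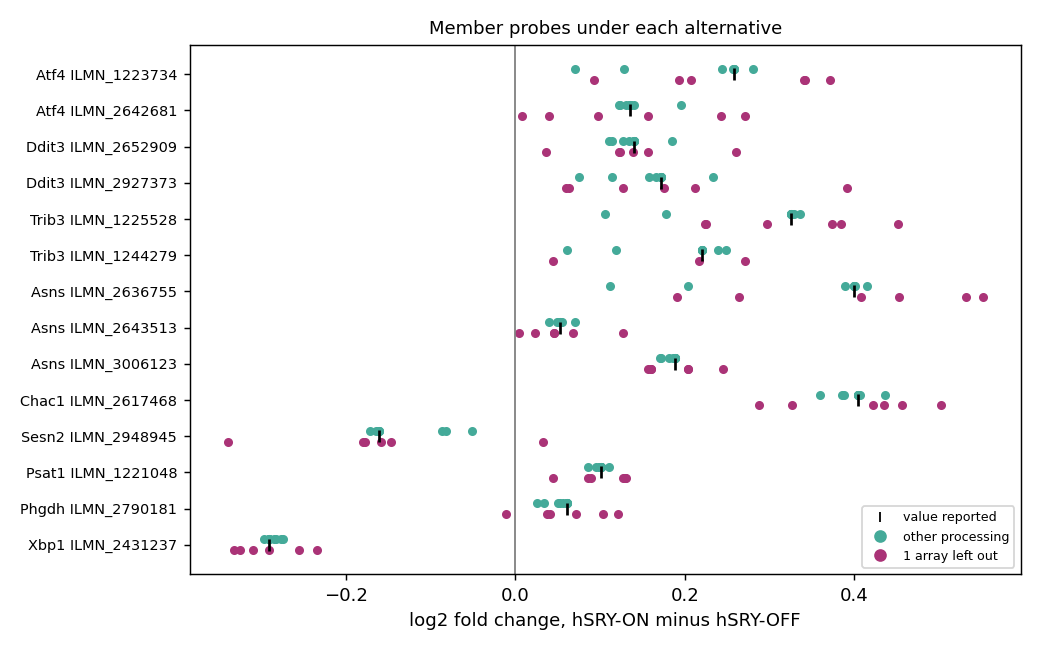
Log2 difference, hSRY-ON minus hSRY-OFF (horizontal axis), of each tested member probe as reported (black mark), under other background corrections, normalizations, filters and models (green) and with 1 array left out (purple). Chac1 and Xbp1 keep their sign under every alternative, while Sesn2 and Phgdh cross 0 when the third hSRY-ON array is left out.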

How the data were processed

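Total RNA was labelled as biotinylated cRNA and hybridized to Illumina MouseRef-8 bead arrays. The authors deposited a linear mean bead signal intensity per probe and array together with a detection p-value (the fraction of negative controls no dimmer than the probe), and for the values in this table no background correction or normalization was stated. The deposited intensity values differed in median between arrays (200.2 to 219.8). The submitters' processing notes name limma, and the methods name TCC, without settings, for normalization and differential expression; TCC was not used here.

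Background was removed with the normexp model of limma (negative controls inferred from the detection p-values, 798 per array, offset 16), put on the log2 scale and quantile normalized in R 4.3.3 with limma 3.58.1. This correction widens the spread of dim probes. The test took in probes detected (p-value under 0.05) on 3 or more of the 6 arrays and used lmFit and eBayes (group only, two-sided), and p-values were adjusted by Benjamini-Hochberg over all 14215 tested probes. Groups and replicate numbers came from the sample titles. The arrays are described as biological triplicates, and their number, 3 per group, limits the precision. Replicate numbers 1 to 3 recur in both groups with no stated pairing.

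The members and all gene lists were chosen with earlier results of these data known, and lists are described by counts and medians without set tests. Genes named from the pathway lists were those called and the 2 with the lowest unadjusted p in each direction; undetected or well-known genes of a list, Vldlr's other probes, Psph, Hsp90b1, Pdia4, Hyou1, Ern1 and the eIF2 kinases were added after values were seen. Marker lists are summarised, with called astrocyte genes and the 2 higher ones of lowest unadjusted p named. List genes were matched by symbol or by a RefSeq synonym, and promoter sequences are from RefSeq (GRCm38.p6). On data simulated from these arrays with 200 changed probes, a median change of 1.00 on the log2 scale, and 14894 tested probes, the steps made 176 calls, recovered 165 changed probes (82.5%) and made 11 false calls. The changed probes were drawn from the brighter ones only and shifted by more than any member differed. This recovery is therefore no guide to the members. Alternatives were other background corrections, normalizations, filters, priors, weights and thresholds, 1 probe per symbol, a replicate block and leaving out each array. Plots were made in Python 3.11.15 (matplotlib 3.10.9).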

Additional observations from a re-analysis of the deposited data

How the results depend on the processing

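Call counts were recomputed under 17 alternatives. The values of the 14 member probes were recomputed under 15 of these, 6 of which left out 1 array, and kept the direction and the side of the threshold in 197 of 203 values. With an array left out the Phgdh difference ran from -0.011 to 0.12 and that of Sesn2 from -0.34 to 0.033, each changing sign (-0.011 and 0.033) without the third hSRY-ON array. Member calls were 0 except for 2 without background correction and 2 with the trended robust prior, in both cases Chac1 and Xbp1, and were 0 to 0 with an array left out. Over all tested probes the 308 calls became 1317 without background correction, 860 with normexp on the signals and an offset of 50, 123 with no filter on dim probes, 705 with detection on all arrays at 0.01, 1447 with the trended robust prior, 480 with array weights and 999 at an adjusted p under 0.10. With an array left out they were 0 to 417, the 417 arising without the third hSRY-ON array and the others leaving 0 or 1. Calls in the pathway lists were 8, and became 29 without background correction, 19 with the offset of 50, 15 with the strict filter, 33 with the trended robust prior and 0 to 10 with an array left out. Calls in the marker lists were 12, and became 33, 27, 23, 33 and 0 to 18 in the same order. The cause of these changes was not tested.

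Same-numbered arrays of the groups had correlated deviations of only 0.04, 0.03 and 0.03, so the numbers were not taken as pairs, although each array correlated best with its own number. With the number as a replicate block there were 0 calls over all probes, 0 in the pathway lists and 0 in the marker lists. For 2 counts added after seeing the data, chaperone probes at an unadjusted p under 0.05 numbered 5 to 8 over all alternatives, and 11 to 15 chaperone probes were lower. Chaperone calls, 0 as reported, became 5 without background correction, 3 with the offset of 50, 2 with the strict filter and 5 with the trended robust prior. Member differences well within 0.20 to 0.50 on the log2 scale, depending on the probe, could not be told from 0 with this number of arrays, and the 3 undetected member probes give no reading of their genes.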
